A study of Mus musculus with 6 samples.

Results

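The cells described here are those of MOC-2 tumors that carried transcripts of the vessel lining. Cells were first kept if they passed a filter (500 genes or more, mitochondrial share below 15%). Members were then chosen by their own transcripts: at least 3 of the 8 genes Pecam1, Cdh5, Kdr, Flt1, Egfl7, Eng, Tie1 and Esam had to be detected, Pecam1 or Cdh5 among them, with no molecule of C1qa, C1qb, C1qc or Ptprc. Values of these genes in the members are therefore a description. The rule took 88 of 13768 kept cells, or 0.639% (exact binomial 95% interval 0.513 to 0.787, for counting error only). MOC-2 is a mouse oral squamous carcinoma line used as a model of head and neck cancer (HNSCC), and 100000 of its cells were injected under the skin of male mice, on the back or hindquarter. Of the 6 tumors, 3 received the vehicle DMSO and 3 an experimental treatment by injection into the tumor, and all were taken 24 h later. The labels do not say which agents the treated tumors received. Their protocol names clodronate, 4-1BB ligand, galunisertib, R848, L-NMMA, epcadostat, Nw-Hydroxy-nor-L-arginine, Copper(II) diethyldithiocarbamate, 2-C1-IB-MECA, 5’ppp-dsRNA/Lyovec and a 2'3'-c-di-AM(PS)2 compound, dissolved in DMSO or water. Strain and age are not in the labels used here.

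Viable cells were sorted by Zombie UV exclusion, tagged per tumor, pooled in equal ratio and sequenced by droplet 3′ RNA-seq as unique molecular identifiers (UMIs). The deposited matrix has 14818 cells in 6 barcode sets, and nothing in the labels ties a set or a tag to a tumor. The matrix was therefore treated as 1 sample, treated and vehicle tumors were not compared, and no test was made from cells. No cell barcode was shared between sets. Levels are summed UMIs scaled to 1e6 UMIs of the group (CPM), with exact Poisson 95% intervals that cover counting error only. UMIs of a 3′ assay do not scale with transcript length, so CPM of different genes are set side by side as counts of molecules captured. A gene is called considered in a comparison when it had 10 UMIs in the cells named first, or 10 were expected there from the level in the cells it was compared with, and it is called higher or lower at 2-fold.

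Endothelial cells line blood and lymphatic vessels. VEGF receptors, the Tie receptors and Notch ligands steer their sprouting, VE-cadherin and claudin-5 seal the contacts between them, and selectins and ICAM or VCAM proteins on postcapillary venules let leukocytes leave the blood. Lymphatic vessels are set apart by the transcription factor PROX1 and by the receptor VEGFR3, encoded by Flt4. Tumor vessels are commonly described as sprouting, leaky and covered by an altered basement membrane.

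The label held for most of these cells but not for all. UMIs of the 8 rule genes made up between 0.624 and 139 per 10000 UMIs of a cell, with an empty stretch between 6.98 and 11.6. The 60 cells above it are called rule-gene-rich here, and the 28 below it rule-gene-poor; the line at 10 per 10000 was drawn after the values were seen. The rule-gene-poor cells were deep, with a median of 25488 UMIs against 4647.5 in the rule-gene-rich cells, and held 67.2% of the UMIs of all 88. In 23 of the 28, exactly 3 rule genes were detected. Xist was found in 24 of them and in 3 of the 60 rule-gene-rich cells. Y-linked transcripts were found in 6 of 28 and in 29 of 60, and 5 of the rule-gene-poor cells held both.

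Genes outside the rule separated both kinds as well. The 30 endothelial genes that the rule did not use summed to 9452 CPM in the rule-gene-rich cells (interval 9145 to 9766), 260.5 CPM in the rule-gene-poor cells and 331 CPM in all other kept cells. The 10 keratinocyte or carcinoma genes went the other way, with 23.7, 1368 and 914 CPM. On the endothelial sum the rule-gene-poor cells lay under all other cells. That list holds Aqp1, a gene also found outside vessels, and a sum without it was not compared. Of its members Emcn, Cd93, Cldn5 and Plvap, 0%, 0%, 10.7% and 25% of the rule-gene-poor cells held a UMI. In the rule-gene-rich cells the shares were 78.3%, 63.3%, 61.7% and 81.7%. By these values the label did not hold for the rule-gene-poor cells as a group. Of the 28, 2 did hold 4 of 5 lymphatic markers together with Xist, at 19910 and 15999 UMIs. Doublets were not removed: no member reached a scrublet score of 0.25, which 1.85% of kept cells did. Whether the rule-gene-poor cells are doublets was not tested. Levels below are for the 60 rule-gene-rich cells unless the whole rule is named, and sums over the whole rule are diluted by the deep cells.

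**Figure D1:**
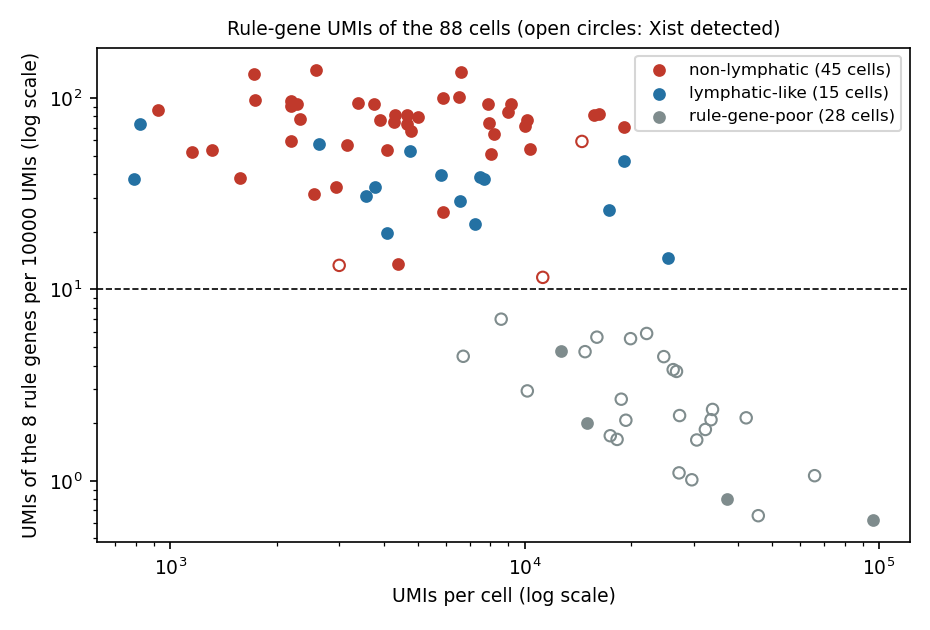
UMIs of the 8 rule genes per 10000 UMIs (log scale) against UMIs per cell (log scale) for each of the 88 cells, with the dashed line at 10. Open circles had at least 1 Xist UMI; the rule-gene-poor cells lie at 6.98 or below and to the right, and 24 of 28 are open.

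At the edge of the rule itself, the 28 cells with exactly 3 rule genes had a median of 2.27 rule-gene UMIs per 10000, and 5 of them were rule-gene-rich. The 181 cells with exactly 2 rule genes that met the rest of the rule had a median of 2.03, and 6 of them reached 10. Another 14 cells had enough rule genes but held Ptprc or C1q transcripts, and 5 of those reached 10.

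The rule-gene-rich cells came from every barcode set, with 21, 13, 5, 13, 3 and 5 cells in sets 1 to 6. They made up 0.727% (exact binomial 95% interval 0.451 to 1.11) of the kept cells of set 1, 0.588% (0.313 to 1.00) of set 2, 0.601% (0.195 to 1.40) of set 3, 0.344% (0.183 to 0.587) of set 4, 0.111% (0.0229 to 0.324) of set 5 and 0.371% (0.120 to 0.863) of set 6. Set 5 lay lowest and set 1 highest. The intervals cover counting error only, and the sets were not tested against each other. All later values by set rest on these few cells, and those of set 5 on 3.

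**Figure D2:**
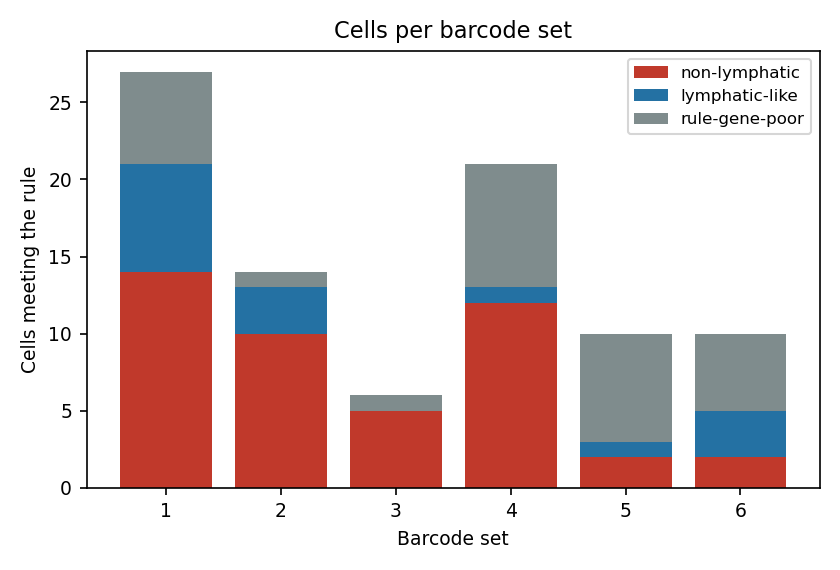
Number of cells meeting the rule in each of the 6 barcode sets, stacked by kind. Set 1 held 27 of the 88 cells, and rule-gene-poor cells were 7 of 10 in set 5.

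The endothelial identity of the 60 cells was broad as a group, but it did not hold for each cell. A cell at 13.6 rule-gene UMIs per 10000 held 38 Rgs5 and 14 Col1a1 UMIs and no Plvap, Emcn, Cldn5 or Cd93. Another at 13.3 held 5 Xist UMIs and none of those genes. A cell at 11.6 held 11 Xist and 14 Col1a1 UMIs, and 1 UMI of each of those genes. They stay among the 60 and the non-lymphatic cells described below. Of the 30 endothelial genes outside the rule, 29 were at least 2-fold higher than in the other kept cells and none was 2-fold lower, where 19.7% of the 6546 genes considered were 2-fold higher and 13.5% lower. The median fold of the list was 352, beside 1.09 over all genes considered. These counts are a description, since the rule chose cells by genes of the same program. The exception was Aqp1, a water channel also found outside vessels, at 260.2 CPM against 172 CPM.

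The barrier gene Cldn5 (chr16:18776847-18778262, mm10) encodes claudin-5 of the tight junction. It measured 663, 904, 237, 469, 456 and 505 CPM in the rule-gene-rich cells of sets 1 to 6. No set lacked it, and the summed level of 586 CPM (512 to 668) compared with 0.208 CPM in the other cells. Emcn (chr3:137341067-137432185), the sialoglycoprotein endomucin of veins and capillaries, measured 536, 362, 732, 889.5, 729.7 and 361 CPM in the same order. Its sum was 605 CPM (529 to 688) against 0.251 CPM. Myct1, an endothelial membrane protein, stood at 497 CPM against 0.172 CPM, a 2885-fold ratio. Cd93, a C-type lectin of angiogenic endothelium, reached 773 CPM. Robo4, which stabilises vessels, was at 97.2 CPM against 0.0359 CPM, and the phosphatase gene Ptprb, whose product restrains Tie2, at 310.1 against 0.222 CPM.

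These genes were seen in a large share of cells at equal depth. After each cell was thinned to 2000 UMIs, which left out 8 of the 60, Emcn was detected in 63.5% of the rule-gene-rich cells (exact binomial 95% interval 49.0 to 76.4; 78.3% unthinned) and Cldn5 in 50% (35.8 to 64.2; 61.7% unthinned). In a T cell gate (at least 2 of Cd3e, Cd3d and Cd3g), which should lack both, each was detected in 0.442% of 226 thinned cells. Median depths before thinning were 4647.5 UMIs and 2579 UMIs. Plvap, the diaphragm protein of fenestrae and caveolae, was detected in 63.5% of thinned rule-gene-rich cells, 1.33% of T cells and 2.80% of the cells with Xist and no Y-linked, Ptprc, Pecam1 or Cdh5 transcript.

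Transcription factors of the endothelium were high together: 19 of 22 considered members of that list were 2-fold higher than in the other cells and none lower. Over all genes considered, 19.7% were higher and 13.5% lower. Erg, an ETS factor that maintains endothelial identity, stood at 84.1 CPM against 0.0287 CPM. Sox17, Sox18 and Sox7, SOX factors of vessel specification, stood at 126, 302 and 336 CPM against 0.043, 0.194 and 1.33 CPM. Epas1, which encodes HIF-2α, measured 273 against 4.15 CPM. Members shared with other tissue differed less: Nr2f2, a venous factor also made by stromal cells, was at 239 against 192 CPM, and Klf4 at 507 against 283 CPM.

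ETS factors bind DNA around a GGAA core. Because the genes of the identity program were high together, their start-site windows (250 bases before to 50 after each RefSeq start, GRCm38.p6) were read for the letters AGGAAG on either strand. Windows were found for 22 of the 38 rule and endothelial genes, 25 windows in all. The letters occurred in 17 of 25 windows (68%) and in 35.4% of all 32851 windows of that length in the table. A SOX-type core, ACAAAG, occurred in 16% against 18.7%, and a GATA-type core, GATAAG, in 12% against 7.44%. A match is a description of the letters and not evidence of binding. The first 3 windows below were picked for their 2 matches each, in capitals, to show where the letters lie. The fourth belongs to Mmrn1, a gene of the lymphatic-like cells described further on, and has no match, like the window of Cldn5. The Mmrn1 window surrounds a RefSeq start that lies inside the GENCODE span of the gene given further on, not at the start of that span. Each is written 5′ to 3′ along the gene's strand: Tie1 chr4:118489800-118490099, minus strand; Flt1 chr5:147725962-147726261, minus strand; Emcn chr3:137340828-137341127, plus strand; Mmrn1 chr6:60944067-60944366, plus strand.
Tie1: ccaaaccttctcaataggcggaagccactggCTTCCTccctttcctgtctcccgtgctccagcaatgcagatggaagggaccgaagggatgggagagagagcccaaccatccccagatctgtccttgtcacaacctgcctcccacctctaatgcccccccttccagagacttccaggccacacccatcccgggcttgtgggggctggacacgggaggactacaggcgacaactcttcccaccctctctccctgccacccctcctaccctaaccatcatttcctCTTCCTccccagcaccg
Flt1: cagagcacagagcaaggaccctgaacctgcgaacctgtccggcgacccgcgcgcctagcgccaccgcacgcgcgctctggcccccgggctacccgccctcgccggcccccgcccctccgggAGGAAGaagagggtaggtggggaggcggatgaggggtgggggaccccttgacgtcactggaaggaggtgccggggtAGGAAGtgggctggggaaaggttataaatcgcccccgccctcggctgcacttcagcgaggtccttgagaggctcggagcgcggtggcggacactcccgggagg
Emcn: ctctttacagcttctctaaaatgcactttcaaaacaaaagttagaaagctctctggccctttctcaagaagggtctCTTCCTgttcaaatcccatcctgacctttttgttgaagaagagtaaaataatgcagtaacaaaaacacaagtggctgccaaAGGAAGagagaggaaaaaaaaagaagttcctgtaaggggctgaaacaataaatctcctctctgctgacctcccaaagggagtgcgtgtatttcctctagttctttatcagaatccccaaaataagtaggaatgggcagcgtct
Mmrn1: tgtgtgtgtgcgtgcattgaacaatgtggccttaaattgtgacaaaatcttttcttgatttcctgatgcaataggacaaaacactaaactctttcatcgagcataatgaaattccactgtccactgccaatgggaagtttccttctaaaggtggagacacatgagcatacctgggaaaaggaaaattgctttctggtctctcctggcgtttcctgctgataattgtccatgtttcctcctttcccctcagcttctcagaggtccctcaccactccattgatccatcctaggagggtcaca

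Of the marker lists of other cell types, the pericyte and mast cell lists were above the level of all other kept cells, and the rest were below it. The T or NK list summed to 5.26 CPM with 10 of its 12 members at 0, and the neutrophil list to 5.26 CPM with 6 of 8 at 0. Ptprc and the C1q genes are at 0 by rule. The macrophage or monocyte list summed to 234 CPM against 699 CPM. The pericyte or smooth muscle list summed to 381 CPM, above the 104 CPM of all other cells and below the 4413 CPM of a pericyte gate of 99 cells (at least 3 of Rgs5, Cspg4, Kcnj8, Abcc9, Notch3, Higd1b, Cox4i2 and Pdgfrb, and no Pecam1, Cdh5, Ptprc or C1q). Without 5 cells that had at least 5 Rgs5 UMIs or any Xist UMI, the sum was 187 CPM, and the fibroblast list stood at 169.9 instead of 996 CPM. Kit, which also marks mast cells, stood at 139 CPM, or 80.5 CPM without set 1, while the other 5 mast cell genes were at 0.

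Against the pericyte gate, 29 of 30 endothelial genes outside the rule were also 2-fold higher, where 19.1% of 6581 genes were. The basement membrane list differed less from pericytes than from all cells, with 7 of 20 and 13 of 20 members 2-fold higher. The shares over all genes considered were 19.1% and 19.7%.

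**Figure D3:**
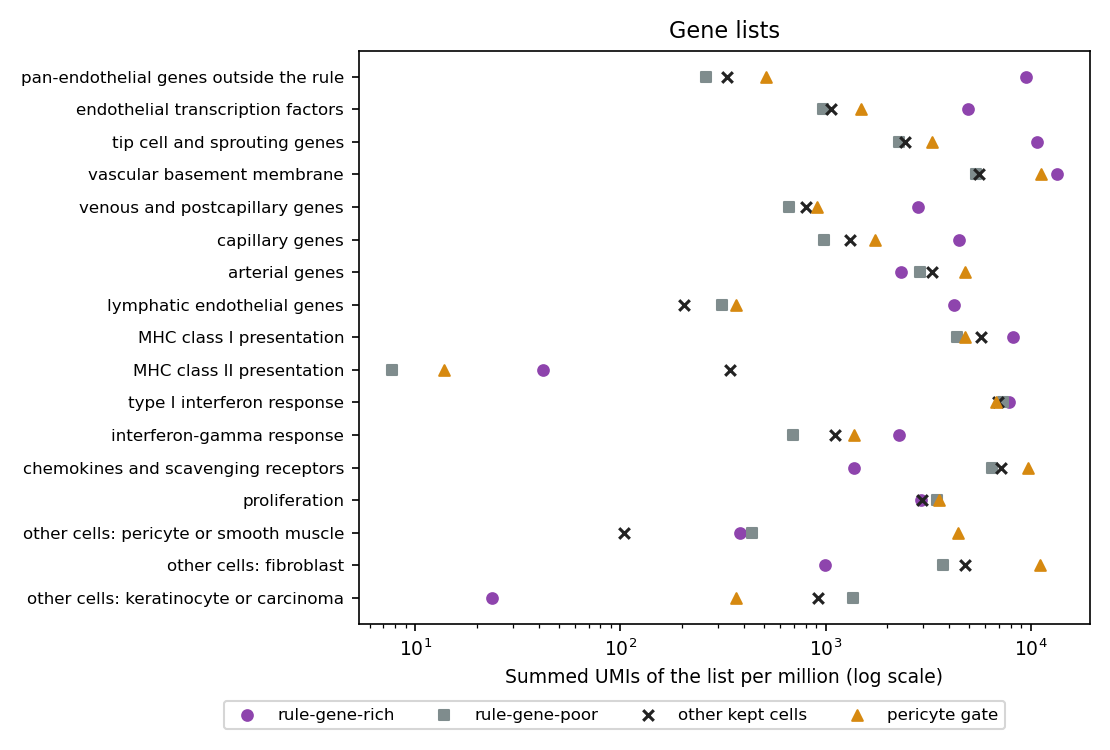
Summed CPM (log scale) of 17 gene lists in the rule-gene-rich cells, the rule-gene-poor cells, all other kept cells and the pericyte gate. On the pan-endothelial, transcription factor, sprouting, venous and capillary lists the rule-gene-poor cells sit beside the other kept cells and the rule-gene-rich cells lie to the right; on the arterial list, which holds Mgp, they do not.

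The rule-gene-rich cells held a lymphatic group. The 5 lymphatic markers that the rule did not use (Prox1, Lyve1, Ccl21a, Reln and Mmrn1) were absent from 41 cells and present singly in 4, while 15 cells had at least 2 and 11 of these had 4 or 5. The 15 are called lymphatic-like and the other 45 non-lymphatic, a cut made after the values were seen. Lymphatic-like cells numbered 7, 3, 0, 1, 1 and 3 in sets 1 to 6 and non-lymphatic cells 14, 10, 5, 12, 2 and 2. Median depth was 5804 UMIs and 4402 UMIs. Y-linked transcripts were found in 9 of 15 and 20 of 45, and Xist in 0 and 3.

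Of the defining markers, 4 had no UMI in the non-lymphatic cells, and Lyve1 had 7. Mmrn1 (chr6:60924976-60989378), a secreted multimerin of lymphatic endothelium, had 163 UMIs in all 15 lymphatic-like cells and 0 UMIs in the 45 others. Prox1 (chr1:190118035-190170714) had 46 UMIs in 13 cells against 0. Ccl21a, the CCR7 ligand that draws dendritic and T cells into lymphatics, reached 5976 CPM against 0; it has near-identical copies in the mouse genome, so its assignment among them is uncertain. Lyve1, a hyaluronan receptor, stood at 1077 against 26.6 CPM, the latter from 4 cells. These markers made the split, and their values are a description.

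Genes that did not make the split also differed. Of 2896 genes considered, 444 (15.3%) were at least 2-fold higher in the lymphatic-like cells and 370 (12.8%) 2-fold lower. Without barcode set 1, which held 7 of the 15 cells, 215 genes were higher and 218 lower. Which genes are considered depends on the UMIs left, and their number without set 1 was not counted. These counts therefore cannot be read as shares. Flt4, the VEGFR3 gene, measured 521 CPM (399 to 669.9) against 56.9 CPM (31.9 to 93.9), with 14 of 15 cells positive against 13 of 45. Nrp2, its semaphorin and VEGF-C co-receptor, measured 906 against 182 CPM, whereas Nrp1, the co-receptor of VEGFR2, measured 0 against 357 CPM. The co-receptors thus lay on opposite sides of the split. Nts (neurotensin) stood at 1941 against 15.2 CPM, the transcription factor gene Maf at 1094 against 7.59 CPM, and the semaphorin gene Sema3d at 316 CPM against 0. Scn3a, a sodium channel gene, had 29 UMIs in 10 lymphatic-like cells, none in the others, and 0.043 CPM outside the rule.

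Single genes of the junction and scavenger groups were higher in the lymphatic-like cells, while most members of those lists were not. In the junction, fenestra and caveola list 2 of 16 considered members were 2-fold higher and 7 lower, and in the list of chemokines and scavenging receptors 1 of 8 and 6. Over all genes considered, 15.3% were higher and 12.8% lower, so the numbers of higher members were near the share of all genes. Cldn5 stood at 1197 CPM (1007 to 1412) against 315 CPM (251 to 390.5), Stab1, a scavenger receptor gene, at 573 against 114 CPM, and Fn1 (fibronectin) at 1958 against 683 CPM. Ackr2, which takes up inflammatory chemokines on lymphatics, had 7 UMIs against 0.

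Genes of blood endothelium were lower in the lymphatic-like cells, and several were at or near 0. Flt1, the VEGFR1 gene and a rule gene, had 0 UMIs in 15 cells and 281 UMIs in 43 of 45. Cd93 measured 8.55 against 1112 CPM, Esam 17.1 against 816 CPM and Mcam, a laminin-binding adhesion gene, 51.3 against 1149.97 CPM. Sox17 and Robo4 had no UMI in lymphatic-like cells, where 182 and 140.4 CPM were measured in the others. Emcn stood at 94.0 against 831 CPM and Plvap at 274 against 824 CPM. Shared genes overlapped in their counting intervals: Egfl7 stood at 421 to 699 and 416 to 589.97 CPM, Tie1 at 84.7 to 233 and 128 to 233, and Erg at 41.0 to 157 and 52.3 to 126.

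One lymphatic-like cell of set 1, with 25346 UMIs and 21.7% of the group's UMIs, held all 291 UMIs of Ctsk found in the group, all 198 of Mmp9 and 136 of 137 of Acp5, genes of bone-resorbing or matrix-degrading cells. Without it, Ckb fell from 684 to 120 CPM, and the macrophage list from 718 to 273 CPM. Mmrn1 was then at 1637 CPM and Cldn5 at 1244 CPM.

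**Figure D4:**
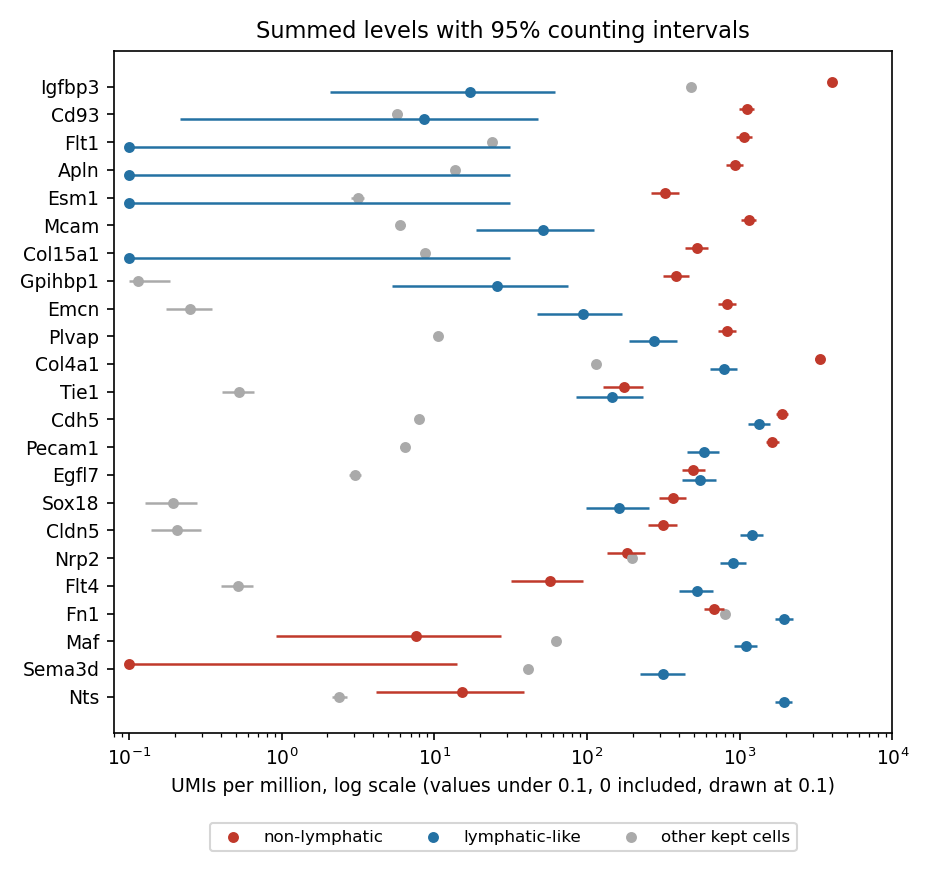
Summed CPM (log scale) of 23 genes in the 45 non-lymphatic cells, the 15 lymphatic-like cells and the other kept cells, with exact Poisson 95% intervals as bars. Igfbp3 to Col4a1, Cdh5, Pecam1 and Sox18 lie higher in the non-lymphatic cells, the intervals of Tie1 and Egfl7 overlap, and Cldn5 to Nts lie higher in the lymphatic-like cells.

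Sprouting genes were high in the non-lymphatic cells. Of the tip cell and sprouting list, 21 of 25 members were 2-fold higher in the rule-gene-rich cells than in the other cells and none 2-fold lower. Over all genes considered the shares were 19.7% and 13.5%. The list summed to 14001 CPM in non-lymphatic and 3548 CPM in lymphatic-like cells. Igfbp3 (chr11:7206086-7213923), a secreted IGF-binding protein, had the highest level of the list. It measured 3431, 2062, 1184, 4147, 274 and 144 CPM in the rule-gene-rich cells of sets 1 to 6, high in sets 1 to 4 and low in sets 5 and 6. These values pool both kinds of cells. Sets 5 and 6 held 2 non-lymphatic cells each, beside 1 and 3 lymphatic-like cells. Summed over the non-lymphatic cells, Igfbp3 was at 4012 CPM (3773 to 4261), against 17.1 in lymphatic-like and 476 CPM in the other cells. Igfbp3 was not particular to the endothelial cells: it was found in 74.4% of thinned non-lymphatic cells (exact binomial 95% interval 57.9 to 87.0), in 32.4% of the thinned Xist-bearing cells without Y-linked transcripts and in 10.6% of thinned T cells.

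Apln, the apelin peptide of sprouting tips, measured 1231, 0, 194, 505, 0 and 36.1 CPM in sets 1 to 6 and was at 0 in sets 2 and 5. Its 21 positive cells were 10 in set 1, 3 in set 3, 7 in set 4 and 1 in set 6. The apelin receptor gene Aplnr stood at 228 CPM in non-lymphatic cells and 0.0933 CPM outside the rule. Esm1, an endothelial proteoglycan induced by VEGF, was found in 13 cells, 9 of them in set 1. Without set 1, Apln stood at 233 instead of 644 CPM and Esm1 at 22.4 instead of 226 CPM. Angpt2, the Tie2 antagonist, measured 326 CPM against 4.61 CPM, Dll4, the Notch ligand of tip cells, 199.8 against 0.61 CPM, and Pdgfb, which recruits pericytes, 205 against 8.77 CPM. Because the labels do not tie a set to a tumor or treatment, the spread of Apln and Esm1 over sets is given as a description.

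VEGF receptors and co-receptors were high while the main VEGF ligand was low. Kdr (VEGFR2) measured 609.8 CPM and Plxnd1, a semaphorin receptor gene, 457 against 15.4 CPM. Vegfa stood at 34.2 CPM (18.2 to 58.4) in the rule-gene-rich cells, 189 CPM in the rule-gene-poor cells and 227 CPM in the others. Pgf, a VEGFR1 ligand, went the other way at 226 against 14.1 CPM. Without set 1, Vegfa stood at 17.9 and Pgf at 148 CPM. Of this list, 7 of 10 considered members were 2-fold higher and 2 lower, where 19.7% and 13.5% of all genes were.

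Notch and BMP genes were part of the same profile. In the Notch list 9 of 11 considered members were 2-fold higher, led in fold by Dll4, Notch4 (36.8 against 0.366 CPM) and the target Hey1 (189 against 2.29 CPM), and Rbpj and Notch2 were 2-fold lower. Notch4 stood at 22.4 CPM without set 1. In the BMP and TGF-beta list 8 of 15 were higher. For both lists, the shares over all genes considered were 19.7% higher and 13.5% lower. Id1, a BMP target, stood at 1099 against 147 CPM, Bmpr2 at 394 against 91.7 CPM and the receptor gene Acvrl1 at 34.2 against 1.61 CPM. The ligand gene Bmp2 was lower, at 81.5 against 299 CPM.

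Basement membrane genes were high in the non-lymphatic cells. Col4a1, a chain of collagen IV, measured 2493, 2369, 3336, 2789, 1459 and 1659 CPM in the rule-gene-rich cells of sets 1 to 6, and 3336 CPM in non-lymphatic against 786 CPM in lymphatic-like cells and 115 CPM outside the rule. Col15a1 stood at 524 CPM against 0 in lymphatic-like cells. Nid1 and Nid2, nidogens that link laminin to collagen IV, stood at 531 and 184 CPM against 15.9 and 1.75 CPM. Sparc was abundant everywhere, at 3330.2 against 2762 CPM. Caveola and contact genes followed, with 14 of 19 considered members of the junction list 2-fold higher, where 19.7% of all genes were. Among the higher members were Cav1 at 846 against 231 CPM, Cavin2 at 137 against 3.79 CPM and F11r (JAM-A) at 418 against 28.3 CPM.

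A small group with venous genes stood out among the non-lymphatic cells. Selp (chr1:164115264-164150026), the P-selectin gene, was detected in 9 of the 45, with 1, 2, 3, 1, 1 and 1 cells in sets 1 to 6, so that every set held at least 1. The cell of set 6 had 2 Selp UMIs beside 7 Rgs5 and 11 Col1a1 UMIs, so set 6 rests on a cell with pericyte and fibroblast transcripts. Ackr1, the chemokine-binding receptor of venules, was found in 5 of these 9 cells and in 0 of the 36 others. Sele (E-selectin) was found in 6 of 9 and 1 of 36, Icam1 in 7 of 9 and 6 of 36, and Vcam1 in 9 of 9 and 8 of 36. Igfbp3 ran the other way, in 2 of 9 (4 UMIs in all) and 33 of 36 (1053 UMIs). Cldn5 was found in 1 of 9 and 22 of 36. Esm1 was found in 0 of 9 and 13 of 36, Cxcr4 in 1 and 21, and Dll4 in 2 and 23. Median depth was higher in the Selp-positive cells, 5902 UMIs against 4294.5. Pecam1 was found in 8 of 9 and 35 of 36. The pattern was noticed in these data, and with single cells of 1 pooled sample it carries no test.

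The split was not complete. Apln was found in 3 of the 9 Selp-positive cells, and Angpt2 in 6 of 9 and 19 of 36. Vwf, the gene of a platelet-binding factor, differed little, in 5 of 9 and 15 of 36 cells and at 170 against 151 CPM. Fabp4, a fatty acid binding protein of capillaries and venules, was found in 8 of 9 and 15 of 36 and reached 217 UMIs in 1 cell. Lrg1, a venous and inflammation-linked gene, was found in 7 of 9 and 22 of 36, and Plvap in 8 of 9 and 30 of 36.

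**Figure D5:**
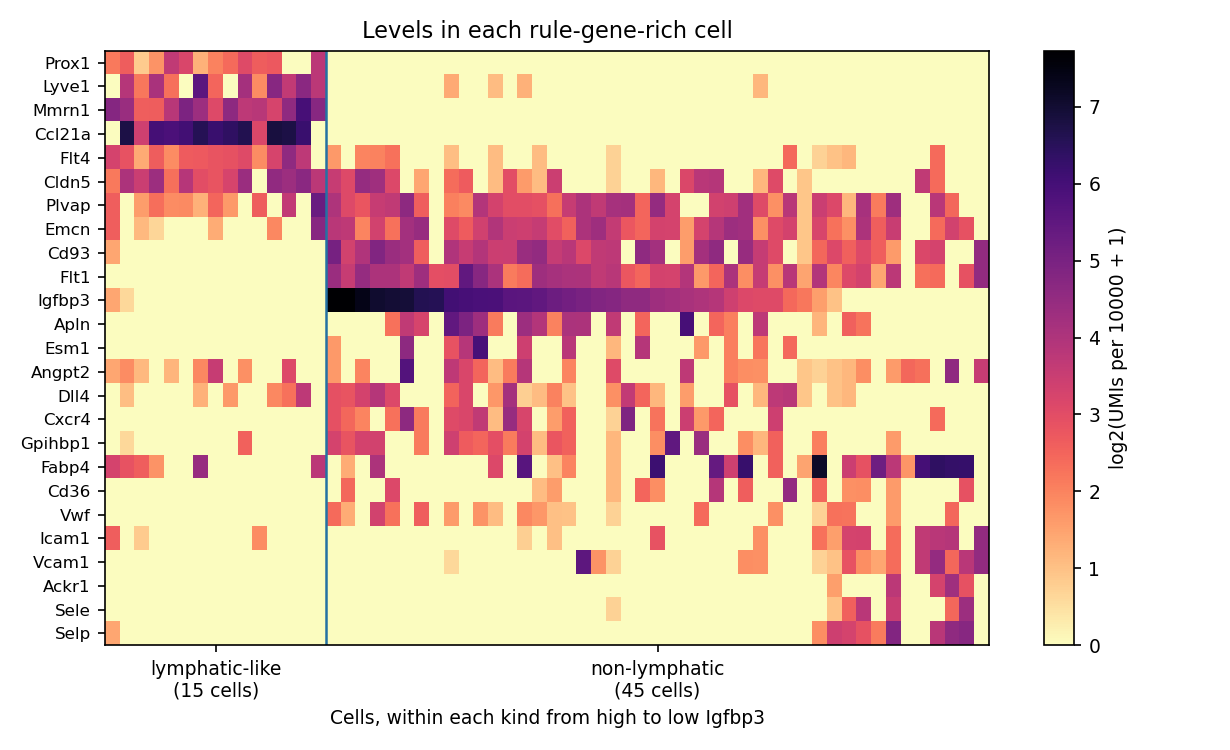
Levels, as log2(UMIs per 10000 + 1), of 25 genes in the 60 rule-gene-rich cells, 1 column a cell, ordered within each kind from high to low Igfbp3. Lymphatic markers fill the 15 columns on the left, and Selp, Sele and Ackr1 gather at the right end, where Igfbp3 is low or at 0.

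Capillary genes were present in part. Gpihbp1, which anchors lipoprotein lipase on capillaries, stood at 273 against 0.115 CPM and was found in 23 of 45 non-lymphatic and 2 of 15 lymphatic-like cells. Fabp4 reached 1490.3 and Cd36, a fatty acid transporter, 94.6 CPM, against 8.08 and 1.80 CPM. Set 3 held 288 of the 567 Fabp4 UMIs, and without it Fabp4 stood at 835 CPM. Without set 1 Cd36 stood at 157 CPM. Car4 had 12 UMIs in 6 cells.

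Arterial markers divided. The Notch-linked genes Sox17, Hey1 and Dll4 were high, as given above, and Depp1 measured 142 against 0.603 CPM, or 85.0 CPM without set 1. Gja4 and Gja5, connexin genes of arteries, had 0 and 0 UMIs in all 60 cells, Sema3g 0 and Bmx 2. At 380463 UMIs in total, a count of 0 allows up to 3 UMIs, so a low arterial level was not detectable at this depth.

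Vessel tone and clotting genes were mixed. Nos3, the endothelial nitric oxide synthase, stood at 99.9 CPM (70.7 to 137) against 0.725 CPM, Edn1 (endothelin-1) at 202 against 3.42 CPM with 1 UMI in lymphatic-like cells, and its receptor gene Ednrb at 234 against 5.04 CPM. Vwf, the platelet-binding factor, had 41 UMIs in 20 non-lymphatic cells and 0 in the lymphatic-like cells. Ptgs2 was lower, at 39.4 against 870.1 CPM, and so was Thbs1, at 410.03 against 1278 CPM. The flow-linked gene Klf2 stood at 329 against 149 CPM.

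Leukocyte adhesion genes, chemokines and immune ligands showed different directions. In the adhesion list 8 of 14 considered members were 2-fold higher and 2 lower, with Icam2 at 110.4 against 1.04 CPM and Lgals1 at 447 against 3658 CPM. In the chemokine list 4 of 16 were higher and 10 lower. For both lists, the shares over all genes considered were 19.7% higher and 13.5% lower. Ccl2 stood at 352 against 2112 CPM, Cxcl1 at 176 against 2192 CPM and Il33 at 15.8 against 354 CPM. Cxcl9 and Cxcl10, ligands of CXCR3 induced by interferon-gamma, were uneven: of 34 Cxcl9 UMIs 21 lay in 1 cell of set 3, and of 91 Cxcl10 UMIs 47 lay in 1 cell of set 1. Without set 2, Ccl2 stood at 215 and Cxcl1 at 98.4 CPM, and without set 1 Ccl2 stood at 541 CPM.

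Of the MHC class I list 6 of 19 considered members were 2-fold higher, where 19.7% of genes were. Class II genes were low against all other kept cells, which include leukocytes. The summed class I level was 5630.4, 6602, 9491, 11588, 11401 and 12839.5 CPM in sets 1 to 6 against 5724 CPM in the other cells, so that set 1 lay at the level of the other cells. Over all sets it was 8237 CPM, above the 4794 CPM of the pericyte gate. It lay below the 9696 CPM of the C1q macrophage gate described below and the 11725 CPM of the T cell gate. H2-K1 measured 1007, 1845, 2862, 2897, 2554 and 3102 CPM in sets 1 to 6 and 1966 CPM in sum against 959 CPM. H2-K1, H2-D1 and the H2-Q genes are close paralogs, so their reads may be divided uncertainly. The class II list summed to 42.1 CPM, against 342 CPM in the other cells. Macrophages gated on at least 3 C1q UMIs and Ptprc held 4039.5 CPM. The list was not lower than in cells without Ptprc. It summed to 13.8 CPM in the pericyte gate. In the cells with Xist and no Y-linked, Ptprc, Pecam1 or Cdh5 transcript it summed to 30.6 CPM. Of the 7 Cd74 UMIs, 6 lay in 1 non-lymphatic cell. Among genes of the costimulation and checkpoint list, Cd200 stood at 378 against 7.96 CPM, Entpd1 (CD39) at 152 against 3.96 CPM, Cd276 (B7-H3) at 134 against 14.9 CPM and Lgals9 at 276 against 45.4 CPM. Cd274 (PD-L1) had 15 UMIs in 9 cells, or 39.4 CPM with an interval of 22.1 to 65.0, whose lower bound lies close to the 21.9 CPM of the other cells. Its fold was under 2.

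Interferon response genes differed between the lists. Of the type I list 8 of 28 considered members were 2-fold higher and 3 lower, with a median fold of 1.24 beside 1.09 over all genes, where 19.7% of genes were higher and 13.5% lower. Rsad2 stood at 210.3 against 54.8 CPM, and Ifit3 at 26.3 against 101 CPM. Of the interferon-gamma list 12 of 21 were higher and none lower, among them Iigp1 at 299.6 against 77.0 CPM and Gbp4 at 44.7 against 5.95 CPM. Summed type I levels by set were 5458, 5426, 6887, 11924, 11675 and 14138 CPM in sets 1 to 6, lower in sets 1 to 3 than in sets 4 to 6. Iigp1 stood at 465 CPM without set 1, and Ifit3 at 13.5 CPM without set 4. Whether this spread goes with treatment was not tested, since no set is tied to a tumor.

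Targets of the agents named in the protocol were measured in the same cells. Tmem173, the STING gene and receptor of cyclic dinucleotides, measured 134, 199, 215, 96.2, 91.2 and 36.1 CPM in sets 1 to 6 and 137 CPM in sum (102 to 179), above the 23.7 CPM of the other cells and the 40.1 CPM of macrophages gated on at least 3 C1q UMIs and Ptprc. Tgfbr1, the kinase that galunisertib inhibits, stood at 60.5 against 28.4 CPM. Ddx58 (RIG-I), the sensor of 5’ triphosphate RNA, stood at 73.6 (48.9 to 106) against 52.5 CPM. Of the nitric oxide synthases, Nos3 was the one detected broadly, with 5 UMIs of Nos2 and 0 of Nos1. Tnfrsf9, the receptor of 4-1BB ligand, had 25 UMIs in 9 cells of sets 1 and 3, or 65.7 against 28.8 CPM. Without set 1 it stood at 26.8 CPM, no longer 2-fold higher. Tlr7, Adora3, Ido1, Ido2 and Arg2 had no UMI in the 60 cells, which allows up to 3, and Arg1 had 1. Vcp and Nploc4, linked to the copper compound, stood at 418 and 18.4 against 256 and 35.6 CPM.

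Among abundant genes outside the lists of other cell types, those lowest over the whole rule were Ctss, Il1b, Saa3, Cd74, Mgp, Ccl4, Cd52, Ifitm1, Plac8 and Ctsc. The rule's demand for no Ptprc or C1q removes leukocytes, which carry many of these, so their low levels are a description. Over all 88 cells, 6.9% of 9386 genes considered were 2-fold higher than in the other cells and 5.09% 2-fold lower. Mgp, a matrix protein, stood at 15.8 CPM in the rule-gene-rich cells, 133 CPM in the rule-gene-poor cells and 1149.6 CPM in the others. It stood at 823 CPM in the T cell gate, which should lack it, and the part of free RNA in its level was not tested. All 13 Cd52 UMIs of the rule lay in 1 lymphatic-like cell.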

How the data were processed

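The authors deposited 1 matrix of UMI counts for 32285 genes and 12 multiplexing tags in 14818 cells. Cell Ranger 7.1, Seurat and build mm10 come from the submitters' processing notes, Seurat 4.1.0 from the series text, and per the file headers the matrix is output of Cell Ranger 7.0.0. Filters before deposit are not given in the sources used here.

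Counts were summed per group of cells and scaled to CPM. The minimum was 10 UMIs, observed or expected, and the floor for folds 3 counts. The fold step was tested on simulated data. Scanpy 1.11.5 scored doublets per barcode set. Gene positions are GENCODE M21. The text names the rule genes, up to 5 abundant members of each list, the 20 largest and 10 smallest folds over the whole rule, and the agents' targets; any further gene was picked with its values known. The members and lists were chosen with earlier results of these data known. Treated and vehicle tumors were not compared, because no cell could be tied to a tumor.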

Additional observations from a re-analysis of the deposited data

How the results depend on the processing

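The rule gave 88 cells (0.639%). Of 9386 genes considered, 648 (6.9%) were 2-fold higher and 478 (5.09%) lower than in the other cells. Summed over the lists, 179 members were higher and 23 lower. A gene on more than one list was counted once for each, and members considered were not summed, so these are not shares. Requiring 4 rule genes gave 60 cells (0.436%), 1139 and 729 genes and 38 list members lower. Requiring 2 gave 269 cells (1.95%), 376 genes higher and 118 list members higher, and the fold of the Y-linked gene Eif2s3y turned to 0.976. Leaving out cells with Xist gave 61 cells (0.444%), 1006 and 747 genes and 41 list members lower. Means over cells gave 1109 and 1058 genes and 46 list members lower, and no minimum on UMIs 2080 genes higher. Rule-gene-rich cells alone, an alternative chosen after seeing the data, gave 60 cells (0.437%) and 43 list members lower. Of 6546 genes then considered, 1291 (19.7%) were higher and 883 (13.5%) lower, and 555 of the 648 genes were shared. For the other changes of cells or minimum, genes considered were not counted, so those counts cannot be read as shares. Leaving out 1 barcode set at a time gave 61 to 82 cells, 39 to 57 rule-gene-rich cells, 8 to 15 lymphatic-like cells, 215 to 442 genes higher and 218 to 370 lower in lymphatic-like cells. The lowest of each came without set 1. The number of genes considered also depends on the UMIs left and was not counted for each set left out. The cause was not tested. Stricter or looser cell filters and a reference that weights the sets equally moved none of these counts past 1.5 times, nor did 4 more alternatives chosen after seeing the data: a line at 20 rule-gene UMIs per 10000, 3 lymphatic markers, and leaving out the Ctsk-bearing cell or the cells with Rgs5 or Xist. Values of single genes moved more than the counts: of 193 named genes, the fold over the whole rule moved for 46 with the equally weighted reference, 96 without set 1 and 157 with means over cells, and 1 reversed, under the requirement of 2 rule genes. In an alternative added later, leaving out 1 set moved the rule-gene-rich level by over 1.5 times for 37 of 184 genes. No paired analysis was possible because no cell can be tied to a tumor. Depth limits low genes: 380463 UMIs in 60 cells leave a level of 3 UMIs apart from 0 unresolved.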

Other observations

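Further gene groups were described in the same 60 rule-gene-rich cells. In the lipid list 4 of 10 considered members were 2-fold higher than in the other cells, where 19.7% of all genes were. The list summed to 3161 CPM in non-lymphatic and 1069 CPM in lymphatic-like cells, with Fabp4 the largest member. The lipid list was uneven over sets, at 1543, 1791, 8156, 1322, 4925 and 2669 CPM in sets 1 to 6, and highest in set 3. None of the 19 considered proliferation genes was 2-fold higher than in the other cells. Top2a, a gene of dividing cells, was found in 5 of 15 lymphatic-like and 6 of 45 non-lymphatic cells, and 9 of 13 considered proliferation genes were 2-fold higher in the lymphatic-like cells, where 15.3% of genes were. The summed proliferation level was 4009 against 2448 CPM, and 4911 CPM in the lymphatic-like cells without the Ctsk-bearing cell. These counts come from few cells, and no test was possible.

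Hypoxia and mesenchymal genes did not move as groups. The shares over all genes considered were 19.7% higher and 13.5% lower. In the hypoxia and glycolysis list 6 of 21 considered members were 2-fold higher and 3 lower, with a median fold of 0.919. In the mesenchymal list 3 of 12 were higher and 4 lower. S100a4 was lower, at 194 against 2179 CPM. In the NF-kB list 5 of 24 were higher, near the share over all genes, and 2 lower. Ier3 stood at 628 against 1668 CPM. Of the nucleic acid sensing list 5 of 9 were higher and none lower.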
